A study of Mus musculus with 15 samples.

Results

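The genes described here encode the enzymes that turn arachidonic acid into prostanoids and leukotrienes. They are the cyclooxygenase genes Ptgs1 and Ptgs2, the terminal prostanoid synthase genes Ptges, Hpgds and Tbxas1, and the leukotriene synthesis genes Alox5, Alox5ap, Ltc4s and Lta4h. They were chosen by gene symbol, and all 9 were found among the 24421 genes of each of 3 deposited count tables. RNA was sequenced in bulk from microglia, the macrophages that reside in the brain. They had been sorted out of the forebrain of mice as cells with intermediate CD45 and CD11b, with CD31 stained as well. Wild-type C57BL/6J mice gave 1 library each on days 1, 6, 14 and 28 after a stroke, and sham-operated wild-type mice gave 1 library. The stroke was an occlusion of the middle cerebral artery for 60 min in male mice of 8 to 24 weeks, and the sham surgery left out the occlusion. Igf1-Egfp transgenic mice, whose Igf1 reporter marks cells with EGFP, gave 1 EGFP+ and 1 EGFP– library on day 6 and again on day 14 after the stroke. On day 6 after the stroke, mice of the genotype Cx3cr1-CreER;Yy1flox/flox gave 3 libraries (the Yy1-deleted group), set against 3 from Yy1flox/flox mice (the floxed controls). The controls carried the floxed alleles but no Cre, so Cre and the loss of Yy1 cannot be told apart. Cx3cr1 drives Cre in microglia and in other mononuclear phagocytes. How many mice made up a library, and when tamoxifen was given, is not given in the sources used here.

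Phospholipases free arachidonic acid from membranes. The cyclooxygenases PTGS1, the constitutive form, and PTGS2, the inducible form, turn it into prostaglandin H, which the terminal synthases convert to prostaglandin E (PTGES), prostaglandin D (HPGDS) or thromboxane A (TBXAS1). In the other branch 5-lipoxygenase (ALOX5) works with its membrane partner ALOX5AP to make leukotriene A, from which LTA4H makes the neutrophil attractant leukotriene B and LTC4S makes the cysteinyl leukotrienes. Microglia are known for high PTGS1 and HPGDS, and PTGS2 is the form that inflammatory and ischemic signals raise in macrophages and neurons.

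The promoters of the 4 genes on which the results turn most are shown here, because the first is the cyclooxygenase gene that stood higher after stroke, the next pair stood lower on day 1, and the last is the gene that fell in the Yy1 comparison. Each runs 5′ to 3′ from 250 bases before to 50 bases after the start of the RefSeq gene on GRCm38.p6, and positions count from that start. They lie at chr1:150099781-150100080 on the plus strand (Ptgs2), chr2:36230176-36230475 on the plus strand (Ptgs1), chr6:65144681-65144980 on the minus strand (Hpgds) and chr6:116461129-116461428 on the minus strand (Alox5). Capitals mark matches to motifs that were picked with these sequences in view.
Ptgs2: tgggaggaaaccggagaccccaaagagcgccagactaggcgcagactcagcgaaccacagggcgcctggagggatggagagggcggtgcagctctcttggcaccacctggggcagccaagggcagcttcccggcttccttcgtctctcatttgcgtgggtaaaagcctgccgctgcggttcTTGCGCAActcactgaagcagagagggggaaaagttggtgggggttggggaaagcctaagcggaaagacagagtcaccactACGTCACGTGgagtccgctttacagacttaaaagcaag
Ptgs1: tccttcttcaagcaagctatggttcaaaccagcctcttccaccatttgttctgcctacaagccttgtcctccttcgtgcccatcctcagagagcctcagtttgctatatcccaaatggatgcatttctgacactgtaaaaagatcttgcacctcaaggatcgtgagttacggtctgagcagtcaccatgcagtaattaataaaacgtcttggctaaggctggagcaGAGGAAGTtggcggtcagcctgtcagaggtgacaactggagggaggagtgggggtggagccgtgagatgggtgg
Hpgds: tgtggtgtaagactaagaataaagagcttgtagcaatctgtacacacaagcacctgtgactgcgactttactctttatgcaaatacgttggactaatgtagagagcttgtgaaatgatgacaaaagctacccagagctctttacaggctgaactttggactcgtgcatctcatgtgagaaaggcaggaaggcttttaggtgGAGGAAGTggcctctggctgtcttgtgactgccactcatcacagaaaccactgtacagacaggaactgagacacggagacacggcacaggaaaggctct
Alox5: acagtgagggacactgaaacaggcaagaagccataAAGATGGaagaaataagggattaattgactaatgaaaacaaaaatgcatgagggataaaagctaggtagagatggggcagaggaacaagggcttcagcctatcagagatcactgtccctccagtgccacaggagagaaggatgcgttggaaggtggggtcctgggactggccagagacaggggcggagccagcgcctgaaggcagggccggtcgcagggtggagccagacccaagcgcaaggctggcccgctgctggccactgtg

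RefSeq promoters were matched for 8 of the 9 genes, Alox5ap being the other, and both strands were searched. The Ptgs2 promoter held the C/EBP palindrome TTGCGCAA at position -69, which 0.183% of 32851 promoters hold. It also held the CRE core ACGTCA at 13 and the E-box CACGTG at 17, which overlap by 2 bases and are held by 7.51% and 7.15% of promoters. The PU.1 motif GAGGAAGT, held by 3.20% of promoters, was found in Ptgs1 at position -24 and in Hpgds at -49. The YY1 motif CCATNTT, held by 16.1% of promoters, was found in Tbxas1 and, on the other strand, in Alox5 at -215, where it reads AAGATGG. The AP-1 motif TGANTCA, held by 7.81% of promoters, was found in Tbxas1 alone. These matches describe letters, and binding was not measured. Positions count from the annotated gene start, and where transcription starts in these cells was not measured.

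The libraries held 16.8 to 52.6 M counts (M, 1e6) in the time course and day 6 EGFP table, 23.1 to 24.6 M in the day 14 EGFP table and 10.5 to 13.9 M in the Yy1 table. All 10 microglia markers (P2ry12, Tmem119, Sall1 and others) had counts in every library. Their summed level in CPM, counts per 1e6 after TMM scaling (edgeR's correction for library composition), was 28595 in sham and, by day, 6723 (day 1), 15490 (day 6), 9393 (day 14) and 14226 (day 28). Markers of other cell types had counts too, and the summed level of 10 neutrophil markers was 58.6 CPM in sham and, by day, 2449 CPM (day 1), 432 CPM (day 6), 73.9 CPM (day 14) and 2506 CPM (day 28). The day 14 and day 28 libraries of the time course held fewer genes with a count, 11823 and 9886, than the 16009 of sham. Of 6307 genes with at least 20 CPM in sham, 39 (0.618%) were at 0 on day 14 and 194 (3.08%) on day 28. Yy1 itself stood at 32.4, 28.8 and 38.6 CPM in Yy1-deleted libraries 1 to 3, against 75.9, 51.0 and 57.8 CPM in floxed controls 1 to 3. Those groups did not overlap, and the log2 fold change of Yy1 was -0.88 with an adjusted p of 0.128 (edgeR's quasi-likelihood test with Benjamini-Hochberg adjustment). In bulk samples, fewer cells of a type and less RNA per cell cannot be told apart.

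The time course asks how the enzyme genes stood at each stage after stroke. Ptgs2 was far above sham at every stage, while Ptgs1 and Hpgds, the prostanoid enzyme genes with the most counts per kilobase in sham, were below it. Alox5 was close to sham on day 1 and almost without counts on day 28. There was 1 library per time point, so no ratio has a spread between mice beside it, and all 4 comparisons share the sham library. A gene passed the size rule with an absolute log2 ratio of at least 1, computed on CPM plus 1, and at least 5 CPM in 1 of both libraries. On that scale the change of low genes is understated. Brackets give 95% exact binomial intervals of a fold, which cover counting error only.

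Ptgs2, the gene of the inducible cyclooxygenase (GRCm38 chromosome 1, 150100031 to 150108227), had 9.30 CPM in the sham library, 523.5 CPM on day 1, 165.1 CPM on day 6, 318.9 CPM on day 14 and 244.9 CPM on day 28. All 4 stroke libraries stood above sham, with the highest level on day 1 and the lowest on day 6. The fold over sham was 56.3 (51.5 to 61.7) for day 1 and 17.8 (16.2 to 19.5) for day 6. It was 34.3 (31.3 to 37.7) for day 14 and 26.3 (24.0 to 28.9) for day 28. Neutrophils and monocytes are also known to express Ptgs2. On day 14, 5 of 10 neutrophil markers (Ngp, Ltf, Mmp8, Mmp9 and Cxcr2) were at 0 and the list summed to 73.9 CPM, against 58.6 CPM in sham. Of these sums, Lcn2 alone made up 62.8 CPM on day 14 and 8.36 CPM in sham. Monocyte markers (9 genes) summed to 60.5 CPM in sham and, by day, to 1608 CPM (day 1), 1426 CPM (day 6), 2133 CPM (day 14) and 2066 CPM (day 28), with F10 at 0 on day 14. Of the stroke libraries, day 6 was the lowest for these markers and for Ptgs2. Immediate early and heat shock genes that tissue dissociation can raise (18 genes, Ptgs2 not among them) summed to 14910 CPM in sham and, by day, to 12641 CPM (day 1), 16295 CPM (day 6), 22909 CPM (day 14) and 32516 CPM (day 28). Endothelial and mural markers (10 genes) summed to 230 CPM in sham. By day they summed to 676 CPM (day 1), 3068 CPM (day 6), 5242 CPM (day 14) and 31.0 CPM (day 28). The part of all these cells and of dissociation in the Ptgs2 level was not tested.

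Ptgs1, the constitutive cyclooxygenase gene (chromosome 2, 36230426 to 36252272), had 671.7 CPM in the sham library, 192.4 CPM on day 1, 377.8 CPM on day 6, 316.1 CPM on day 14 and 446.3 CPM on day 28. All 4 stroke libraries stood below sham, day 1 being the lowest, where the log2 ratio to sham was -1.80 and the fold 0.286 (0.280 to 0.293). Day 14, with a log2 ratio of -1.08, was past the size rule too, whereas day 6 (-0.83) and day 28 (-0.59) were not. With RLE scaling (the DESeq2 size factors) the day 14 ratio was -0.91, short of the rule.

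Because the cyclooxygenases share a substrate, their relative level was also taken within each library, per kilobase of annotated exon (4580 bases for Ptgs2 and 3884 for Ptgs1). The ratio of Ptgs2 to Ptgs1 in CPM per kb was 0.0117 in sham. By day it was 2.31 (day 1), 0.371 (day 6), 0.855 (day 14) and 0.465 (day 28). Of the 5 wild-type libraries, the day 1 library held more Ptgs2 than Ptgs1 per kb, and the other 4 held less.

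**Figure D1:**
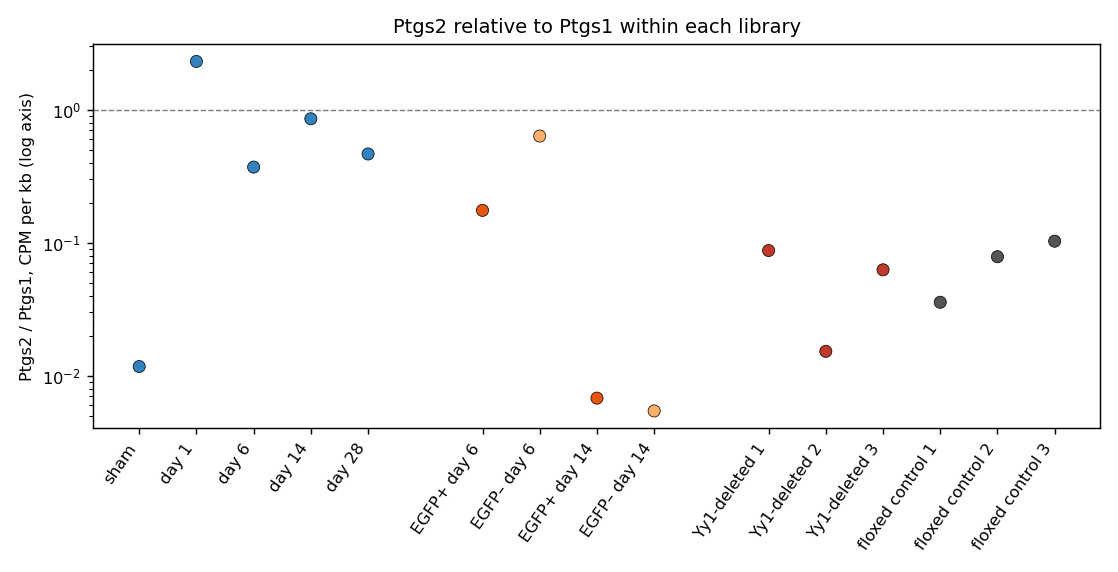
Ratio of Ptgs2 to Ptgs1 within each of the 15 libraries, in CPM per kb of exon on a log axis, with the dashed line at equal levels. Day 1 stands above the line at 2.31, and the sham and day 14 EGFP libraries are the lowest, at 0.0117 and below.

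Among the terminal synthases, Hpgds (chromosome 6, 65117293 to 65144908), which makes prostaglandin D, had 630.9 CPM in the sham library, 249.7 CPM on day 1, 415.7 CPM on day 6, 266.6 CPM on day 14 and 302.8 CPM on day 28. All 4 stroke libraries were below sham, with log2 ratios of -1.33, -0.60, -1.24 and -1.06 in order of day, so that 3 of 4 were past the size rule. Under RLE scaling day 28 was short of it at -0.93. Tbxas1, the thromboxane synthase gene (chromosome 6, 38875404 to 39084585), had 118.2 CPM in the sham library, 63.8 CPM on day 1, 105.2 CPM on day 6, 39.2 CPM on day 14 and 85.5 CPM on day 28. It was likewise below sham throughout, and past the rule on day 14 alone (log2 ratio -1.57). Tbxas1 overlaps Hipk2 and 1700025N23Rik on the opposite strand, and whether the counting used strand is not given in the sources used here. Ptges, the inducible prostaglandin E synthase gene (chromosome 2, 30889471 to 30929863), was near the limit of detection, at 0.19 CPM in sham, 3.59 on day 1, 4.60 on day 6 and listed at 0 counts on days 14 and 28. Its counts were 10 in sham, 178 on day 1 and 206 on day 6, which gives folds of 19.2 (10.2 to 40.7) and 24.6 (13.1 to 52.0) over sham. It never reached the 5 CPM of the size rule in the time course.

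**Figure D2:**
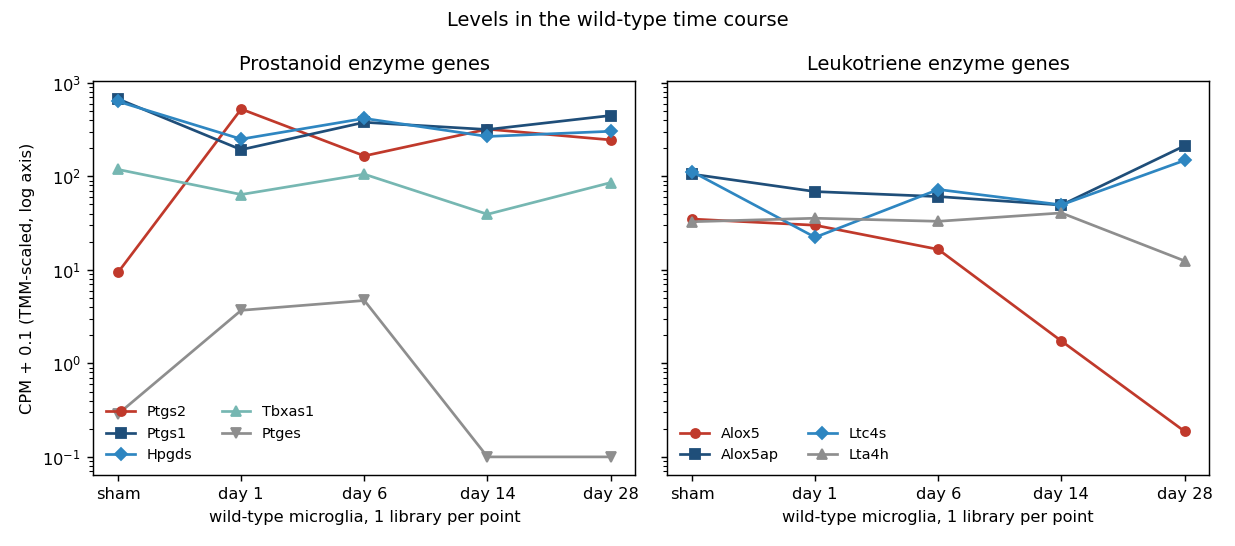
Level of each of the 9 genes in the wild-type time course, as CPM plus 0.1 on a log axis, with 1 library per point and the prostanoid enzyme genes (left) apart from the leukotriene enzyme genes (right). Ptgs2 stands at 9.30 CPM in sham and between 165.1 and 523.5 CPM after stroke, and Alox5 at 0.09 CPM on day 28, against 34.8 CPM in sham.

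Of the leukotriene genes, Alox5, which encodes 5-lipoxygenase (chromosome 6, 116410077 to 116461178), had 34.8 CPM in the sham library, 29.9 CPM on day 1, 16.4 CPM on day 6, 1.63 CPM on day 14 and 0.09 CPM on day 28. These last values rest on 30 counts and 2 counts, against 1857 counts in sham. Its fold to sham was 0.859 (0.801 to 0.920) for day 1, 0.472 (0.433 to 0.515) for day 6, 0.0469 (0.0315 to 0.0672) for day 14 and 0.00252 (0.000305 to 0.00912) for day 28. Each later library was lower than the one before it. The log2 ratio on day 6, -1.04, lay at the edge of the size rule and was -0.99 with RLE scaling or with total counts. The EGFP libraries of day 14, in a table scaled apart, stood at 105.7 CPM (EGFP+) and 155.3 CPM (EGFP–). In the time course, the libraries of days 14 and 28 are those with the most genes at 0, and the part of that in the Alox5 values was not tested.

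The partner gene Alox5ap (chromosome 5, 149264767 to 149288153) did not follow Alox5. It had 105.4 CPM in the sham library, 68.5 CPM on day 1, 60.6 CPM on day 6, 49.2 CPM on day 14 and 211.7 CPM on day 28, lowest on day 14 and highest on day 28. The day 28 level was 2.01-fold that of sham (1.93 to 2.09), with a log2 ratio of 0.999 on CPM plus 1, just short of the size rule, and 1.12 with RLE scaling. The day 28 library also had the highest dendritic cell markers of the time course (8 genes, summing to 15.7 to 22.1 CPM in the other 4 libraries and 486 CPM on day 28, with Xcr1 and Itgae at 0 on day 28). Neutrophil markers summed to 2506 CPM on day 28, with Cxcr2 at 0, and to 2449 CPM on day 1, when Alox5ap was below sham. Both cell types are known to express Alox5ap, and their part in its level was not tested.

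Downstream of leukotriene A, Ltc4s (chromosome 11, 50236461 to 50238616), the cysteinyl leukotriene synthase gene, had 112.1 CPM in the sham library, 22.2 CPM on day 1, 72.2 CPM on day 6, 49.4 CPM on day 14 and 147.8 CPM on day 28. Day 1 was the lowest, with a fold of 0.198 (0.185 to 0.211) to sham, and day 28 stood above sham at a fold of 1.32 (1.26 to 1.38). Lta4h, the leukotriene A hydrolase gene (chromosome 10, 93453411 to 93484875), was near its sham level until day 14, at 32.6 CPM in sham, 35.5 on day 1, 32.9 on day 6 and 40.5 on day 14, and stood at 12.4 CPM on day 28. Its log2 ratio to sham on day 28 was -1.33, and no earlier day was past the size rule.

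Counted over the time course, 8 of the 9 genes reached the 5 CPM of the size rule, Ptges being the other. On day 1, 1 member was past the rule above sham (Ptgs2) and 3 below (Ptgs1, Hpgds and Ltc4s), where 15.5% of all 10718 genes considered stood above and 9.39% below. On day 6, 1 stood above (Ptgs2) and 1 below (Alox5), against 14.1% and 2.93% of all genes. On day 14, 1 stood above (Ptgs2) and 6 below (all but Lta4h), against 24.7% and 25.5%. With RLE scaling 4 members were past the rule on day 14, with Ptgs1, Alox5ap and Ltc4s short of it at -0.91, -0.91 and -0.995. On day 28, 1 stood above (Ptgs2) and 3 below (Hpgds, Alox5 and Lta4h), against 22.6% and 37.1%. The median log2 ratio of the 8 genes was -0.75 (day 1), -0.61 (day 6), -1.13 (day 14) and -0.53 (day 28), where the median of all genes considered was 0.04, -0.06, -0.06 and -0.23 in the same order.

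Compared per kb of exon, so that genes can be ranked within a library, Ptgs1 led the 9 genes in sham at 173 CPM per kb, followed by Ltc4s at 111, Hpgds at 98.2 and Alox5ap at 74.2, with Ptgs2 at 2.03, above Ptges alone. On day 1 Ptgs2 led at 114 CPM per kb, followed by Ptgs1 at 49.5 and Alox5ap at 48.3. On day 6 Ptgs1 led again at 97.3 with Ptgs2 at 36.0. On day 28 Alox5ap, Ltc4s and Ptgs1 led at 149, 146 and 115 CPM per kb, with Ptgs2 at 53.5. With 1 library per time point, no spread between mice is known for neighbours in these orders.

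For each gene, the other genes whose log2(CPM + 1) tracked it most closely over the 7 libraries of the time course and day 6 EGFP table were found among 9356 candidates. With 7 points that share depth, sort and cell makeup, these values describe the libraries only. For Ptgs2 they were Csf1 (Pearson's r 0.984), a growth factor gene on which microglia depend, Hcar2 (0.961), which encodes the niacin and butyrate receptor, and Myo1c (0.932). Csf1 had 47.2 CPM in the sham library, 575 CPM on day 1, 259 CPM on day 6, 388 CPM on day 14 and 317 CPM on day 28, in the same order of days as Ptgs2. For Ptgs1 they were Srgap2 (0.987), Sema4g (0.986) and Gm10790 (0.985), and for Hpgds Tnfrsf21 (0.972), Pmepa1 (0.970) and the transcription factor gene Maf (0.966). For Tbxas1 they were B3galnt1 (0.978), the lysosomal protease gene Lgmn (0.972) and Bag4 (0.963). For Ltc4s they were Inpp4b (0.993), Plxdc1 (0.987) and Zfp697 (0.979). For Alox5 they were Rnf216 (0.985), Ap5z1 (0.980) and Sec24b (0.979), for Alox5ap 2810474O19Rik (0.970), Coro1a (0.966), which encodes an actin-binding protein of leukocytes, and Rb1 (0.966), and for Lta4h Lbr (0.981), Ccnd3 (0.974) and Tnip1 (0.973).

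The rest of the pathway was followed with 6 lists of 56 genes. In the release of arachidonic acid (14 genes), 3 of 9 considered stood above sham on day 1 and 3 below, against 15.5% above and 9.39% below over all genes considered. Those above were Anxa1, Pla2g7 and Pla2g4a. Anxa1, whose product annexin A1 inhibits phospholipase A2 activity, stood at 67.8 CPM against 1.39 CPM in sham. Pla2g7, which encodes the platelet-activating factor acetylhydrolase, stood at 29.3 against 0.43 CPM. Pla2g4a, the cytosolic phospholipase A2 gene, stood at 195.6 against 82.5 CPM. Mgll, which encodes the monoacylglycerol lipase that supplies brain arachidonic acid, stood lower, at 10.8 CPM on day 1 against 49.1 CPM in sham. On the later days it stood at 23.8 CPM on day 6, 3.37 on day 14 and 19.3 on day 28.

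Among the prostanoid receptors, of which 2 of 9 were considered on day 1, Ptger4, a receptor gene for prostaglandin E, had 7.53 CPM in the sham library, 79.3 CPM on day 1, 59.1 CPM on day 6, 29.1 CPM on day 14 and 158.7 CPM on day 28. It was above sham in all 4 stroke libraries and past the size rule in each. The prostaglandin breakdown gene Hpgd, which encodes 15-hydroxyprostaglandin dehydrogenase, had 399 CPM in the sham library, 66.7 CPM on day 1, 181.5 CPM on day 6, 121.7 CPM on day 14 and 105.8 CPM on day 28, below sham and past the rule on every day. Cysltr1, the cysteinyl leukotriene receptor gene, was past the rule below sham on days 1, 6 and 14, at 32.0, 54.4 and 36.9 CPM, against 124 CPM in sham. The leukotriene B receptor gene Ltb4r1, which neutrophils express, stood at 4.52 CPM on day 1 and 41.1 CPM on day 28, against 0.22 CPM in sham. The neutrophil markers summed to nearly the same level on both days, 2449 and 2506 CPM. On day 28, however, Cxcr2 was at 0 and Retnlg and Mmp8 were each at 0.088 CPM, below their 1.67 and 1.35 CPM in sham. The part of neutrophils in the Ltb4r1 level was not tested. The transporter gene Abcc4, which exports prostaglandins, stood at 103.4 CPM on day 6 and 265 CPM on day 14 against 35.9 CPM in sham. Slco2a1, a prostaglandin uptake transporter gene of endothelium, stood at 40.9 and 48.1 CPM on those days against 0.34 CPM in sham. Ptgis, the prostacyclin synthase gene of vessels, stood at 45.7 CPM on day 14 against 0.41 CPM in sham. The 10 endothelial and mural markers summed to 230 CPM in sham and, by day, to 676 CPM (day 1), 3068 CPM (day 6), 5242 CPM (day 14) and 31.0 CPM (day 28), with Kcnj8 at 0 on days 14 and 28, and their part in these genes was not tested.

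The EGFP comparison asks how cells with an active Igf1 reporter differed from cells without it. On day 6, EGFP+ cells stood below EGFP– cells for Ptgs2 and for 3 of the 4 leukotriene genes, and above them for Tbxas1. On day 14 none of the 9 genes was past the size rule. Each state had 1 library per day, so no test was made within a day.

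Ptgs2 stood at 28.2 CPM in EGFP+ cells on day 6, against 152.8 CPM in EGFP– cells, a fold of 0.184 (0.171 to 0.199). On day 14 it stood at 11.5 CPM in EGFP+ cells against 9.03 CPM in EGFP– cells. In the table of the time course, which was scaled apart, it stood at 318.9 CPM in the wild-type library of the same day and at 9.30 CPM in sham. Both day 14 EGFP libraries were thus near the sham level and far below the wild-type day 14 level. The day 6 EGFP– library had high markers of other leukocytes. Neutrophil markers summed to 160 CPM in EGFP+ cells on day 6, with Retnlg at 0, against 12151 CPM in EGFP– cells, and monocyte markers to 1109 against 4850 CPM. Dendritic cell markers summed to 7.88 CPM in EGFP+ cells, with Flt3, Cd209a, Ccr7 and Xcr1 at 0, against 357 CPM in EGFP– cells. Border macrophage markers (8 genes) went the other way, at 697 CPM in EGFP+ cells against 471 CPM in EGFP– cells. Of 6 considered, 4 were past the size rule above and 0 below. The dissociation genes summed to 5447 CPM in EGFP+ cells against 15708 CPM in EGFP– cells, with 17 of 18 past the size rule below. The part of these cells and of dissociation in the day 6 differences was not tested. On day 14, neutrophil markers summed to 1137 CPM in EGFP+ cells and 0.16 CPM in EGFP– cells, where 9 of 10 were at 0.

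Ptgs1 stood at 136.3 CPM in EGFP+ cells on day 6 against 204.2 CPM in EGFP– cells, both under the 377.8 CPM of the wild-type day 6 library. On day 14 it stood at 1435 CPM in EGFP+ cells against 1407 CPM in EGFP– cells in the table scaled apart. Its log2 ratio was -0.58 on day 6 and 0.03 on day 14. The ratio of Ptgs2 to Ptgs1 in CPM per kb was 0.175 in EGFP+ cells against 0.635 in EGFP– cells on day 6, and 0.00679 against 0.00544 on day 14. Hpgds stood at 551.8 CPM in EGFP+ cells on day 6 against 291.0 CPM in EGFP– cells, and at 425.1 CPM against 438.6 CPM on day 14, with log2 ratios of 0.92 and -0.04. Tbxas1 stood at 126.9 CPM in EGFP+ cells on day 6 against 62.4 CPM in EGFP– cells, a log2 ratio of 1.01 that was 0.95 when scaled by total counts. On day 14 it stood at 385.5 CPM in EGFP+ cells against 345.5 CPM in EGFP– cells. Ptges had 88 counts (3.95 CPM) in EGFP+ cells on day 14 and was listed at 0 in EGFP– cells, and it had 10 counts in EGFP+ cells on day 6 against 70 in EGFP– cells.

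Alox5 stood at 8.11 CPM in EGFP+ cells on day 6 against 42.6 CPM in EGFP– cells, a log2 ratio of -2.26. On day 14 it stood at 105.7 CPM in EGFP+ cells against 155.3 CPM in EGFP– cells, a log2 ratio of -0.55. Both stood far above the 1.63 CPM of the wild-type day 14 library, and above the 34.8 CPM of sham, in the table scaled apart. Alox5ap had the same order on both days, at 94.7 CPM in EGFP+ cells against 222.2 CPM in EGFP– cells on day 6 (log2 ratio -1.22), and 197.9 against 331.4 CPM on day 14 (-0.74). Lta4h stood at 30.2 CPM in EGFP+ cells against 64.1 CPM in EGFP– cells on day 6, a log2 ratio of -1.06, and at 92.0 against 90.05 CPM on day 14. Ltc4s was not past the rule on either day. It stood at 37.2 CPM in EGFP+ cells against 26.3 CPM in EGFP– cells on day 6, and at 146.9 against 177.1 CPM on day 14.

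**Figure D3:**
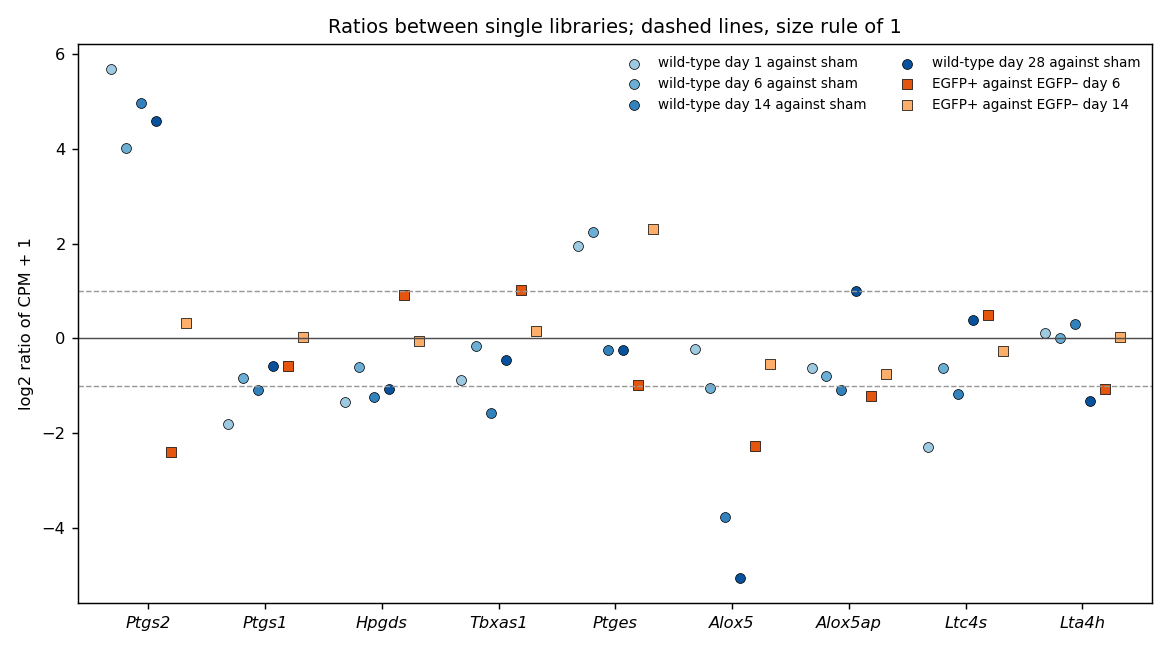
Log2 ratio of CPM plus 1 for each of the 9 genes between single libraries, with circles for each wild-type day against sham, squares for EGFP+ against EGFP– on each day, and dashed lines at the size rule. Ptgs2 stands above sham on every day (4.01 to 5.67) and at -2.40 between EGFP states on day 6, while Alox5 reaches -5.04 on day 28.

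By the size rule, 1 of 8 members considered stood above in EGFP+ cells on day 6 (Tbxas1) and 4 below (Ptgs2, Alox5, Alox5ap and Lta4h), where 9.18% of 10681 genes stood above and 14.7% below. With a pseudocount of 5 CPM, 3 of these were past it, Tbxas1 and Lta4h being short at 0.97 and -0.97. Against the time course table, which was scaled apart, Ptgs1, Tbxas1, Alox5, Alox5ap and Ltc4s stood above sham in both day 14 EGFP libraries and below sham in the wild-type library of that day. Ptgs2 stood far above sham in the wild-type day 14 library and near it in both EGFP libraries. Microglia markers summed to 35074 CPM in the EGFP+ and 35549 CPM in the EGFP– library of day 14, against 9393 CPM in the wild-type library. Endothelial and mural markers summed to 326 and 23.8 CPM in that order, against 5242 CPM. Neutrophil markers summed to 1137 and 0.16 CPM, against 73.9 CPM. The day 14 EGFP libraries were also sequenced on another instrument. What sets the day 14 sources apart was not tested. On day 14, 0 of 8 stood past the rule between EGFP states, where 16.2% of 9921 genes stood above and 13% below. The median log2 ratio of the 8 genes was -0.82 on day 6 and -0.01 on day 14, where the median of all genes considered was -0.05 and 0.04. In a fit of the 4 EGFP libraries with day as a term and 1 residual degree of freedom, edgeR's quasi-likelihood test with Benjamini-Hochberg adjustment called 0 of 12842 genes (0% in either direction), and 193 had an unadjusted p under 0.05. DESeq2 called 36 genes and limma-voom 0, and none of these tools called a member. Alox5ap was the single member with an unadjusted p under 0.05 in the edgeR fit, with a log2 coefficient of -0.98 (SE 0.32), lower in EGFP+ cells on 2 of 2 days, an unadjusted p of 0.0396 and an adjusted p of 1.

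Of the other pathway genes, Anxa1 stood at 57.2 CPM in EGFP+ cells on day 6 against 426 CPM in EGFP– cells, and at 64.9 CPM in EGFP+ cells on day 14, where EGFP– cells had it listed at 0. On both days the neutrophil and the monocyte markers had the same order as Anxa1, the monocyte markers summing to 558 CPM in EGFP+ cells on day 14, with Vcan at 0, against 94.1 CPM in EGFP– cells, with 6 of 9 at 0. The part of these cells in the Anxa1 level was not tested. The receptor gene Cysltr1 stood at 27.3 CPM in EGFP+ cells on day 6 against 108 CPM in EGFP– cells. Fpr2, the formyl peptide and lipoxin receptor gene of neutrophils and monocytes, was listed at 0 in EGFP+ cells on day 6 and stood at 54.7 CPM in EGFP– cells. Pla2g7 stood at 499 CPM in EGFP+ cells on day 6 against 215 CPM in EGFP– cells, and Pla2g15, a lysosomal phospholipase gene, at 221 against 108 CPM. Ptgr1, a reductase gene that inactivates prostaglandins and leukotriene B, stood at 28.4 against 8.34 CPM. On day 14, Ptger4 stood at 37.0 CPM in EGFP+ cells against 17.3 CPM in EGFP– cells.

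The Yy1 comparison asks what differs in the sorted cells on day 6 when the transcription factor Yy1 is deleted. Alox5 fell in Yy1-deleted libraries, and it was the single member called. The other 7 members tested did not pass the test, the cyclooxygenases among them. Here p-values come from edgeR's quasi-likelihood test with Benjamini-Hochberg adjustment over all 12387 genes tested, with 3 libraries per genotype that the labels call biological replicates.

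Alox5 stood at 18.0, 15.2 and 37.5 CPM in Yy1-deleted libraries 1 to 3, against 73.4, 69.0 and 58.8 CPM in floxed controls 1 to 3. The groups did not overlap, and the mean was 23.5 ± 12.1 CPM in Yy1-deleted libraries and 67.1 ± 7.48 CPM in floxed controls (SD, n = 3 each). The log2 fold change was -1.51 (SE 0.35) with an edgeR adjusted p of 0.0252. Replicate 3 of the Yy1-deleted group stood apart from the other 2, at 37.5 CPM. The call was lost when any of 5 libraries was left out, with an edgeR adjusted p of 0.0885 without Yy1-deleted replicate 1, 0.0525 without Yy1-deleted replicate 2, and 0.206, 0.130 and 0.0725 without floxed control replicates 1, 2 and 3. The adjusted p ran from 0.00024 to 0.206 over 12 alternatives, and all 12 kept the direction, with log2 fold changes of -2.02 to -1.27. In the time course, which was scaled apart, Alox5 stood at 16.4 CPM in the wild-type library of day 6 and 34.8 CPM in sham. All 3 floxed controls were above both levels. What sets the day 6 sources apart was not tested.

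In the prostanoid branch, Tbxas1 stood at 98.0, 124 and 124 CPM in Yy1-deleted libraries 1 to 3, against 85.6, 83.8 and 75.6 CPM in floxed controls. The groups did not overlap, and the log2 fold change of 0.50 (SE 0.20) did not pass, at an edgeR adjusted p of 0.243. Ptgs2 varied within both groups, at 42.6, 8.99 and 28.1 CPM in Yy1-deleted libraries against 19.1, 37.1 and 54.1 CPM in floxed controls. Its log2 fold change was -0.47 (SE 0.49) with an edgeR adjusted p of 0.785, so the spread between libraries was wider than the difference. Ptgs1 had overlapping groups, at 413, 499 and 381 CPM in Yy1-deleted libraries against 453, 400 and 446 CPM in floxed controls, and a log2 fold change of -0.0038 (SE 0.14). The ratio of Ptgs2 to Ptgs1 in CPM per kb was 0.0875, 0.0153 and 0.0626 in Yy1-deleted libraries against 0.0357, 0.0786 and 0.103 in floxed controls, with overlapping groups. Each was below the 0.371 of the wild-type day 6 library, where Ptgs2 stood at 165.1 CPM. Hpgds stood at 592, 554 and 594 CPM in Yy1-deleted libraries against 533, 554 and 490 CPM in floxed controls, with a log2 fold change of 0.15 (SE 0.12). Ptges was too low to be tested, with 1 count over the Yy1-deleted libraries against 25 counts over the floxed controls, a fold of 0.0462 with a counting interval of 0.00112 to 0.282.

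In the leukotriene branch, Alox5ap stood at 64.7, 71.8 and 91.4 CPM in Yy1-deleted libraries against 73.8, 57.2 and 73.4 CPM in floxed controls, with a log2 fold change of 0.16 (SE 0.23). Ltc4s stood at 82.8, 183 and 111 CPM in Yy1-deleted libraries against 99.96, 65.2 and 92.8 CPM in floxed controls, with a log2 fold change of 0.55 (SE 0.27) and an edgeR adjusted p of 0.372. Lta4h stood at 45.4, 23.6 and 25.3 CPM in Yy1-deleted libraries against 37.3, 35.2 and 52.7 CPM in floxed controls, with a log2 fold change of -0.41 (SE 0.35). The groups overlapped for all 3 genes.

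**Figure D4:**
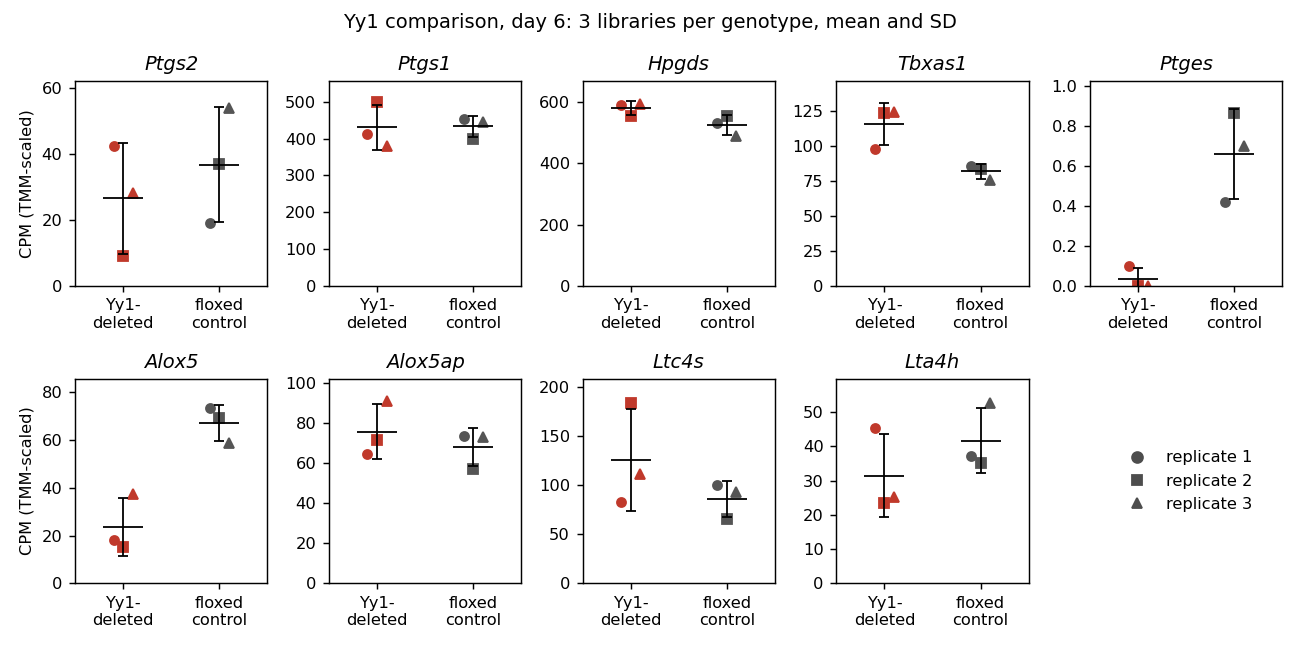
Level in CPM of each of the 9 genes in the 3 Yy1-deleted and 3 floxed control libraries on day 6, with the mean as a bar, the SD as whiskers and marker shapes for the replicate numbers. Alox5 stands at 15.2 to 37.5 CPM in Yy1-deleted libraries and 58.8 to 73.4 CPM in floxed controls.

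In all, 0 of 8 members tested were called higher and 1 lower, where 1.55% of 12387 genes were called higher and 1.05% lower. At an unadjusted p under 0.05 in the edgeR fit, 1 member stood higher (Tbxas1, p of 0.0218), where 7.11% of all genes tested did, and DESeq2 and limma-voom called 0 members higher as well. Of the 8 members tested, groups did not overlap for Tbxas1, above, and Alox5, below, where the same held for 9.45% of genes above and 11.6% below. The groups of Ptges, which was too low to be tested, did not overlap either, at 0 to 0.098 CPM in Yy1-deleted libraries and 0.42 to 0.86 CPM in floxed controls. The median log2 fold change of the 8 members was 0.07, against -0.02 over all genes tested. The markers of the sorted cells differed between the genotypes as well. All 10 microglia markers were called higher in Yy1-deleted libraries and summed to 20139 to 21699 CPM, against 10913 to 12541 CPM in floxed controls. The 9 monocyte markers summed to 613 to 730 CPM in Yy1-deleted libraries, against 838 to 1215 CPM in floxed controls, with F10 at 0 in all 3 Yy1-deleted libraries and Chil3 called lower. The 8 border macrophage markers summed to 22.2 to 59.9 CPM in Yy1-deleted libraries, against 89.7 to 112.8 CPM in floxed controls, with F13a1 called lower and Cbr2 at 0 in all 3 Yy1-deleted libraries. Of 18 dissociation genes, Fos, Hspa1a, Hspa1b and Nr4a1 were called higher and Klf6 lower. Monocytes and macrophages are known to express Alox5, and the part of these cells in its level was not tested.

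Of the other pathway genes, 3 were called, from 31 tested, 2 of them higher and 1 lower, against 1.55% and 1.05% of all genes tested. Pla2g7 fell to 11.9 ± 1.68 CPM in Yy1-deleted libraries, against 63.9 ± 7.78 CPM in floxed controls (SD, n = 3 each), with a log2 fold change of -2.42 (SE 0.32) and an edgeR adjusted p of 0.00049. Pla2g15 rose to 346 ± 39.7 CPM in Yy1-deleted libraries, against 197 ± 23.5 CPM in floxed controls, with a log2 fold change of 0.82 (SE 0.16) and an edgeR adjusted p of 0.00713. Hpgd, the prostaglandin breakdown gene, rose to 287 ± 47.3 CPM in Yy1-deleted libraries, against 180 ± 7.37 CPM in floxed controls, with a log2 fold change of 0.68 (SE 0.16) and an edgeR adjusted p of 0.0307. The calls of Pla2g7 and Pla2g15 held in all 12 alternatives, with adjusted p-values of up to 0.00898 and 0.0484. That of Hpgd was lost in 6, with adjusted p-values of 0.116 without Yy1-deleted replicate 1, 0.0572 without Yy1-deleted replicate 3, 0.152, 0.115 and 0.126 without floxed control replicates 1, 2 and 3, and 0.0786 when scaled by total counts.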

How the data were processed

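RNA-seq libraries of sorted mouse microglia were read from 3 gene tables that the authors deposited, with the same 24421 genes in each. Of these, 2 hold deposited raw counts per gene, namely the table of wild-type and day 6 EGFP libraries and that of day 14 EGFP libraries. The Yy1 table was deposited with 3.55% to 4.75% of values not whole per library, and was taken as holding expected counts, which were rounded. The tools STAR, featureCounts and edgeR and the builds mm10 and GRCm38 are listed, without versions or roles, in the submitters' processing notes. All libraries were sequenced on a HiSeq instrument, except the day 14 EGFP libraries on a NovaSeq, per the labels' protocols. Depth per library was 10.5 to 52.6 M counts (M, 1e6) over the 15 libraries, and 0 columns were left unused. Even numbers made up 68.7% to 90.9% of the counts between 1 and 20 in whole-count libraries, and 44.2% to 48.2% in Yy1 libraries. A further 27 genes bear date-like names and are not named.

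Each table was scaled apart by TMM (edgeR 4.0.16, R 4.3.3). The Yy1 groups were tested with filterByExpr and the two-sided quasi-likelihood test of edgeR with Benjamini-Hochberg adjustment at 0.05 and no replicate block, and DESeq2 1.42.0 and limma 3.58.1 (voom) were alternatives. Pairs of single libraries gave log2 ratios of CPM plus a pseudocount of 1 CPM, with exact conditional binomial intervals of 95% that cover counting error only. A joint fit of the 4 EGFP libraries had day as a term, which holds table, sequencer and preparation as well. The procedures were tested on simulated counts with a squared coefficient of variation of 0.1 between libraries. The Yy1 test recovered 16% of 2-fold and 94% of 4-fold changes, and the joint EGFP fit 3% and 65%. The common dispersion of the data was higher, at 0.332 (Yy1) and 0.803 (EGFP). A gene that was not called is therefore not shown to be unchanged. Exon lengths and gene positions came from GENCODE M21 on GRCm38, and promoters from RefSeq on GRCm38.p6; which annotation the authors used is not given in the sources used here. Marker lists were matched by symbol, and Ly6g and Trac were not analysed here.

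All 9 members are described. Other pathway genes are named where they pass the test, or the size rule with at least 20 CPM in 1 library, up to 4 per list and comparison, and the 3 most similar genes are named for each member with 20 CPM in 1 of 7 libraries. From those, examples are given, and Pla2g4a on day 1 is named beyond the 4. Members, lists, motifs and rules were chosen with earlier results of these data known.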

Additional observations from a re-analysis of the deposited data

Results flagged for a closer look

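For 6 of the 9 genes the EGFP+ to EGFP– difference had opposite signs on the 2 days. Each state had 1 library per day and the days come from tables scaled apart, so the difference between days was not tested. Taken as the day 6 log2 ratio minus the day 14 log2 ratio, it was -2.72 for Ptgs2 (-2.40 on day 6 and 0.32 on day 14). It was -3.29 for Ptges (-0.98 and 2.31), which had at most 88 counts in these libraries. It was -1.09 for Lta4h (-1.06 and 0.03), -0.61 for Ptgs1 (-0.58 and 0.03), 0.97 for Hpgds (0.92 and -0.04) and 0.75 for Ltc4s (0.49 and -0.27). For Ptgs1, Lta4h and Hpgds the day 14 ratio was within 0.05 of 0.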

How the results depend on the processing

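In the Yy1 comparison 322 genes were called, 192 higher and 130 lower, against 707 with DESeq2, 575 with no filter beyond a count in 1 library, and 97 to 317 when 1 library was left out. Scaling by total counts moved the split to 127 higher and 193 lower. The members called ranged from 0 to 1 when 1 library was left out. The replicate numbers did not pair the libraries, as same-numbered libraries correlated at -0.0058, -0.038 and -0.028 in their deviations from the group means, and with the replicate number as a block 413 genes and 1 member were called. The log2 fold change of Ptgs1 changed sign, to 0.0033 with DESeq2, 0.0032 with RLE scaling, and, from -0.12 to 0.0766 when 1 library was left out, to 0.0245, 0.0766, 0.0333 and 0.0257 without Yy1-deleted replicates 1 and 3 and floxed control replicates 1 and 3. In the joint EGFP fit DESeq2 called 36 genes where edgeR called 0, and the Ltc4s coefficient was -0.0023 with limma-voom, against 0.12 with edgeR.

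Between single libraries, a size rule of 2 left 2 members on day 1, 1 on day 6, 2 on day 14, 2 on day 28 and 2 between EGFP states on day 6. Day 6 against sham had 1 member with RLE scaling, total counts or a pseudocount of 5 CPM, day 14 had 4 with RLE scaling, and the EGFP states had 3 on day 6 with a pseudocount of 5 CPM and 1 on day 14 (Ptges) with no minimum. Over all genes, at least 20 CPM gave 1667, 957, 3354 and 3887 genes in order of wild-type day and 1408 and 1567 for the EGFP days. A size rule of 2 gave 935, 904, 3120, 3956, 729 and 1243 in that order, where the rule itself gave 2669, 1829, 5596, 6113, 2556 and 2897. The day 6 EGFP count was 1682 with a pseudocount of 5 CPM and 4089 with no minimum. Relative to TMM, the median of all genes shifted by 0.17 on day 14 and 0.12 on day 28 with RLE scaling, and by 0.11 on day 14 and -0.10 between EGFP states on day 14 with total counts.

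With 1 library per time point or EGFP state, counting error is the only error known. With counts halved, since most small counts are even, the interval of the fold newly included 1 for Lta4h on day 1 and for Ptgs1, Ptgs2 and Hpgds between EGFP states on day 14. With the counts as deposited it already did for Lta4h on day 6 and between EGFP states on day 14, and for Ptges on days 14 and 28. The cause of these shifts was not tested.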
